A study of Mus musculus with 6 samples.

Results

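Glucocorticoid hormones and FOXO transcription factors both switch on genes under stress, among them genes that slow growth and spare energy. In mouse hippocampus, 10 genes listed as targets of these hormones or factors were followed here. The 10 were taken by gene name from a table of 55414 genes: Depp1, Ddit4, Sgk1, Tsc22d3, Klf9, Zbtb16, Errfi1, Pdk4, Sult1a1 and Mt2. They were picked as stress hormone and FOXO targets, and Depp1 and Ddit4 were also picked because their values in CerM and vehicle libraries did not overlap. For these 2 genes the difference between treatments is therefore a description with no test. RNA came from the hippocampus of mice given CerM (3 libraries) or vehicle (3 libraries), and the titles number the libraries as biological replicates. What CerM stands for, its dose and its duration are not spelled out in the labels, nor are strain, age or sex. The series title places the work in a study of gut bacteria, ceramides, depression induced by corticosterone and mitochondria. Whether each library came from its own mouse is not said, and p-values describe no more than the spread among these 6 libraries.

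Corticosterone, the main glucocorticoid of mice, binds the glucocorticoid receptor, which enters the nucleus and acts on genes that carry its response element or recruit it by other factors. FOXO factors are held in the cytoplasm when insulin or growth factors activate the kinase AKT, and move to the nucleus when that signal falls. Several genes, Ddit4 and Pdk4 among them, are known targets of both arms. In the hippocampus, which is rich in corticosteroid receptors, Sgk1, Tsc22d3, Klf9 and Zbtb16 are widely used as readouts of circulating corticosterone.

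Promoter windows of these genes that held any of 3 glucocorticoid receptor and forkhead motifs are shown, with the motif letters in capitals. The window of Ddit4 is shown beside them. Windows from 250 bases before to 50 bases after each start were taken from RefSeq on build GRCm38.p6, which is older than the GRCm39 build named for the deposited values. Of the 10 genes 9 matched, all but Zbtb16, with 17 windows in all. Each was searched on both strands for the glucocorticoid response element (AGAACA, any 3 bases, TGTTCT), the FOXO motif GTAAACA and the forkhead motif GTAAATA, none of which overlapped another here. Depp1 (chr6:116650434-116650733, plus strand) held GTAAATA, starting 181 bases before the start of the gene. Sgk1 has 6 windows, of which the one at chr10:21993640-21993939 (plus strand) held the response element, starting 189 bases before its start. Klf9 (chr19:23140976-23141275, plus strand) held GTAAACA, starting 100 bases before its start. The window of Ddit4 (chr10:59951721-59952020, minus strand) is shown because that gene was picked beside Depp1, and it held none of the 3.
Depp1: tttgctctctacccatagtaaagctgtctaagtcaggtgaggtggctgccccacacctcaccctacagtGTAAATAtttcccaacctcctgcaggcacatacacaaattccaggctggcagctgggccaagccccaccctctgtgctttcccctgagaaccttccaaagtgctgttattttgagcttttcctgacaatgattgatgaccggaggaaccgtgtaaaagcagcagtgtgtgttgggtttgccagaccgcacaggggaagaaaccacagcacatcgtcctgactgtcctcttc
Ddit4: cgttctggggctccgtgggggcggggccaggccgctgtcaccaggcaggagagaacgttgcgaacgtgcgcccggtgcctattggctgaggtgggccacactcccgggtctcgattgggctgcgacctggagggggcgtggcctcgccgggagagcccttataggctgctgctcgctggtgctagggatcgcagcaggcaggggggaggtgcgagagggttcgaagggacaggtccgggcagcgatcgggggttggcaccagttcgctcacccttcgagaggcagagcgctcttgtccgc
Sgk1: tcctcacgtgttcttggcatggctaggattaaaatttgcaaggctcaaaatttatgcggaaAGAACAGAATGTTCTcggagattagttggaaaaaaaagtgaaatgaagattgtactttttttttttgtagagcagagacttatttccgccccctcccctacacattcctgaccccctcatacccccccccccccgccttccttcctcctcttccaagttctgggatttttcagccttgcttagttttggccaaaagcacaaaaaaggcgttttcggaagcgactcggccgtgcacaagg
Klf9: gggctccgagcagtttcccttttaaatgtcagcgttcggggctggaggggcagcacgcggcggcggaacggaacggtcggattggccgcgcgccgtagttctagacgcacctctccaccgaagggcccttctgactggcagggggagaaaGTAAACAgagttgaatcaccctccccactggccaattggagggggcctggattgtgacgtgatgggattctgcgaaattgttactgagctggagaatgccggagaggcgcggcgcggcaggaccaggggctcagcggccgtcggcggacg

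Among 32851 RefSeq windows of the same length, 3 held the response element (0.00913%), 1199 held GTAAACA (3.65%) and 999 held GTAAATA (3.04%). Each of the 3 stood in 1 of the 17 windows of these genes. The motifs were chosen after the promoter letters were seen, so these shares support nothing further. The metal response core, searched as TGCGCNC and TGCACNC, stood in 25.7% of windows and in 3 of the 17 windows of these genes. It matched 4 times in the window of Mt2 (chr8:94172368-94172667, plus strand), a gene that metals induce, and once each in a window of Sgk1 other than the one printed and in that of Ddit4, where it is left in lower case. A match is a description of letters and not a site. Only these exact patterns were searched, so a window without a match may still hold a variant.

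At the level of single libraries, the 10 genes spanned a wide range of abundance. TPM is a transcript abundance that scales reads for transcript length and library total, so levels can be set beside each other between genes. Mt2 was the most abundant, with 653 to 883 TPM in CerM and 616 to 834 TPM in vehicle libraries, and its range overlapped that of no other gene of the 10. Klf9, Sgk1, Tsc22d3 and Ddit4 followed, with means over all 6 libraries of 68.6, 58.6, 58.0 and 43.4 TPM, and neighbours in that order overlapped in range. Errfi1, Zbtb16 and Sult1a1 came next at 23.7, 16.4 and 13.7 TPM, again with ranges that overlapped between neighbours. Pdk4 at 4.21 TPM and Depp1 at 1.29 TPM stood apart from their neighbours and from each other.

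**Figure D1:**
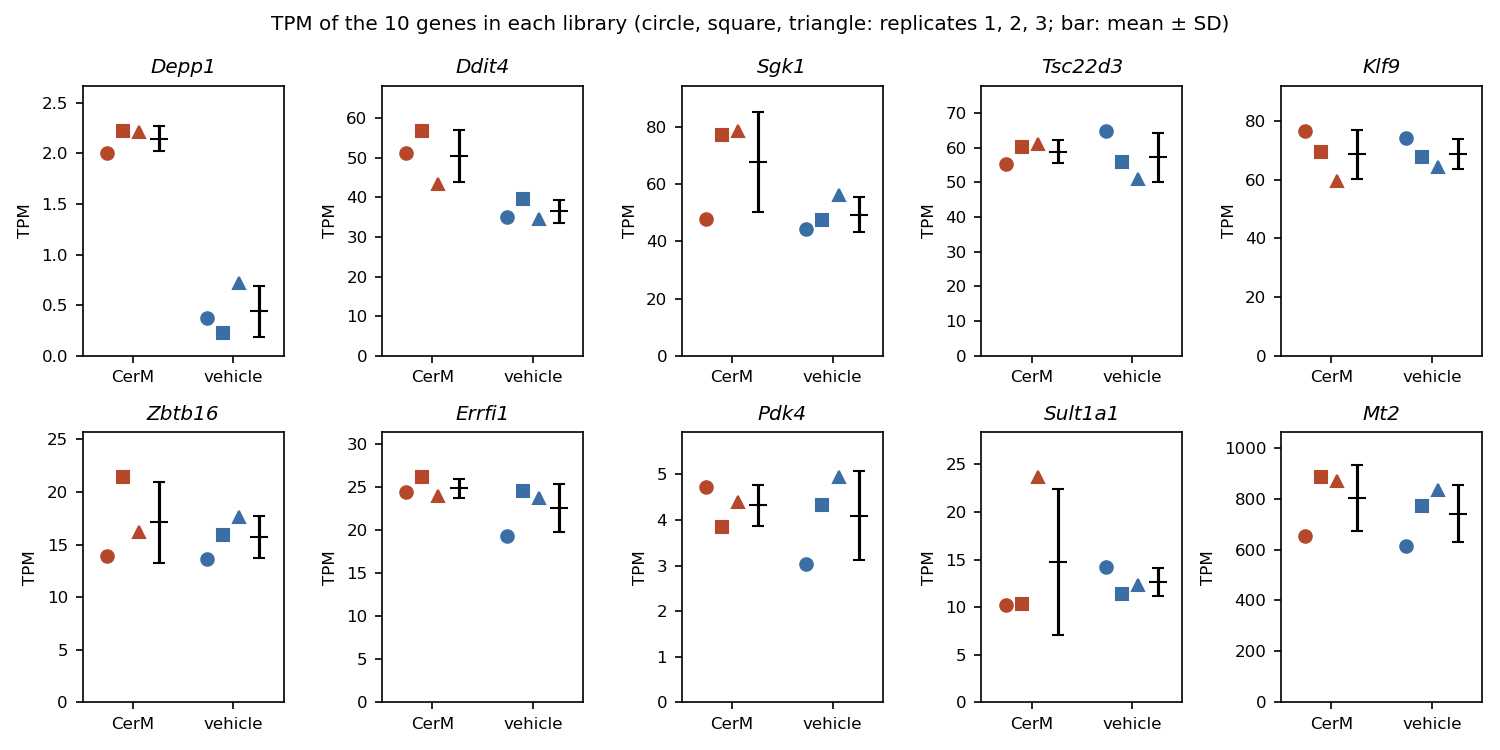
TPM of the 10 genes (vertical axes from 0) in the 3 CerM and the 3 vehicle libraries, with replicates 1, 2 and 3 as circle, square and triangle and the mean ± SD beside each group. Depp1 lies at 2.00 to 2.22 TPM in CerM and 0.23 to 0.72 TPM in vehicle, Ddit4 also separates, and the groups of the other 8 genes overlap.

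Depp1 (ENSMUSG00000048489), a FOXO-induced regulator of autophagy that fasting also induces in mice, had the widest gap between treatments among the 10 as a ratio of the lowest CerM to the highest vehicle value, though not in TPM. It had 2.00, 2.22 and 2.21 TPM in CerM replicates 1 to 3, against 0.37, 0.23 and 0.72 TPM in vehicle replicates 1 to 3. All CerM libraries were higher than all vehicle libraries, and the CerM values lay close together. The means were 2.14 ± 0.12 TPM in CerM and 0.44 ± 0.25 TPM in vehicle (SD, n = 3 each), a ratio of 4.87. Within CerM the highest library was 1.11 times the lowest, and within vehicle 3.13 times. The log2 fold change of TPM + 1 was 1.14 ± 0.22 (SE), and it was 2.16 with a pseudocount of 0.1, since adding 1 TPM compresses a gene this low. Depp1 entered the fit, which required a mean of 1 TPM over the 6 libraries, only through its CerM values, as its vehicle mean lay below that minimum.

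The lowest CerM value of Depp1 was 2.78 times its highest vehicle value. A gap at least that wide, with CerM higher, was held by 5 of 14916 tested genes, Depp1 included. Of 2151 tested genes with a mean within 2-fold of that of Depp1, 120 were higher in CerM without overlap (5.58%). As Depp1 was picked for this separation, these counts place it among other genes and support nothing further.

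Ddit4 (ENSMUSG00000020108), also called REDD1, restrains the growth kinase mTOR and is induced by glucocorticoids, low oxygen and energy stress. It had 51.07, 56.74 and 43.46 TPM in CerM replicates 1 to 3, against 34.99, 39.65 and 34.66 TPM in vehicle replicates 1 to 3. The groups did not overlap, but CerM replicate 3 lay close to vehicle replicate 2. The means were 50.4 ± 6.66 TPM in CerM and 36.4 ± 2.79 TPM in vehicle (SD, n = 3 each), a ratio of 1.38, and the log2 fold change was 0.45 ± 0.12 (SE). Its lowest CerM value was 1.1 times its highest vehicle value, and 150 tested genes had a gap at least that wide. Ddit4 was the member just inside the criterion of no overlap. Errfi1 lay just outside it, with a lowest CerM value of 24.01 TPM against a highest vehicle value of 24.55 TPM.

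Higher values in CerM with no overlap were thus held by 2 of the 10 genes, the 2 picked for it, against 3.26% of all tested genes. All 7 neuron markers listed for the hippocampus, not all of them particular to it, were above 0 in every library. Their summed TPM also separated the treatments, at 3208 to 3234 in CerM and 3822, 3451 and 3334 in vehicle replicates 1 to 3. Vehicle replicate 1 also had the highest sum of neocortex markers, at 315 TPM. Taken singly, 0 of the 7 neuron markers separated the treatments in either direction. The part of the difference in summed neuron markers in the values of Depp1 and Ddit4 was not tested. In bulk tissue, fewer cells of a type and less RNA per cell cannot be told apart. Sums of endothelial markers (10 genes) overlapped, at 233 to 300 TPM in CerM and 253 to 287 TPM in vehicle, as did those of mural markers (8 genes), at 133 to 200 TPM in CerM and 136 to 163 TPM in vehicle. Astrocyte markers (8 genes) were at 1704 to 2162 TPM in CerM and 1647 to 1890 TPM in vehicle, and microglia markers (6 genes) at 231 to 287 TPM in CerM and 238 to 261 TPM in vehicle, again with overlap. By single marker, 1 of the 8 astrocyte genes was higher in CerM without overlap, and 0 were lower. For endothelial, mural and microglia markers both counts were 0.

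No single gene in the table was called between CerM and vehicle. Limma called 0 of 14916 genes at a Benjamini-Hochberg adjusted p below 0.05 (0%), and 402 genes (2.7%) had an unadjusted p below that value. The 8 genes not picked on this contrast had adjusted p-values of 0.989 to 0.999 in the same fit and an unadjusted p above 0.05. Their median log2 fold change was 0.11, beside 0.03 over all tested genes, and 7 of the 8 lay above 0, beside 58.8% of all tested genes.

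Among the regulators of kinase signalling, Sgk1, the serum and glucocorticoid regulated kinase, which regulates ion transport and phosphorylates FOXO3, showed the largest difference of the 8. It had 47.70, 77.29 and 78.54 TPM in CerM replicates 1 to 3, against 44.25, 47.57 and 56.04 TPM in vehicle replicates 1 to 3. CerM replicates 2 and 3 were above every vehicle library, and CerM replicate 1 lay inside the vehicle range. The log2 fold change was 0.42 with a 95% confidence interval of −0.05 to 0.90 (limma, adjusted p = 0.989). It ran from 0.30 without CerM replicate 3 to 0.66 without CerM replicate 1.

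Tsc22d3, also called GILZ, encodes a leucine zipper protein that restrains NF-kappaB and AP-1 and is a classical glucocorticoid target. It had 55.14, 60.16 and 61.14 TPM in CerM and 64.76, 55.81 and 50.94 TPM in vehicle, replicates 1 to 3 in each. The CerM values lay inside the vehicle range, and the highest and lowest of all 6 libraries were vehicle replicates 1 and 3. Its log2 fold change was 0.05 (95% confidence interval −0.22 to 0.31).

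Errfi1, also called MIG6, is a feedback inhibitor of the EGF receptor. It had 24.53, 26.16 and 24.01 TPM in CerM and 19.38, 24.55 and 23.79 TPM in vehicle. Vehicle replicate 1 was low and the other 5 libraries lay within 23.79 to 26.16 TPM. Its fold change on the log2 scale was 0.14 (95% confidence interval −0.14 to 0.42), and 0.04 without vehicle replicate 1.

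Both transcription factor genes gave overlapping groups. Klf9, a zinc finger factor induced by glucocorticoids and thyroid hormone, had 76.51, 69.44 and 59.60 TPM in CerM and 74.10, 67.68 and 64.25 TPM in vehicle. CerM held both the highest and the lowest library, and the means were 68.5 ± 8.49 TPM in CerM and 68.7 ± 5.0 TPM in vehicle (SD, n = 3 each). Its log2 fold change was −0.01 (95% confidence interval −0.28 to 0.27), the only one of the 10 below 0, and it turned to 0.01 with quantile normalization and 0.01 without genes of mitochondrial DNA.

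Zbtb16, also called PLZF, a repressor with a BTB domain and zinc fingers, had 13.88, 21.37 and 16.15 TPM in CerM and 13.63, 15.92 and 17.58 TPM in vehicle. CerM replicate 2 was high and the rest mixed. Its fold change was 0.10 on the log2 scale (95% confidence interval −0.31 to 0.52), and −0.06 without CerM replicate 2.

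Of the metabolic genes, Pdk4, which encodes a kinase that shuts off pyruvate dehydrogenase in fasting, had 4.73, 3.84 and 4.39 TPM in CerM and 3.04, 4.32 and 4.93 TPM in vehicle. The CerM libraries lay inside the vehicle range. On the log2 scale the change was 0.08 (95% confidence interval −0.36 to 0.52), and −0.08 without vehicle replicate 1. Mt2, a metallothionein that binds zinc and copper, had 652.84, 882.74 and 870.51 TPM in CerM and 615.74, 772.61 and 834.06 TPM in vehicle. Replicate 1 was the lowest of its group under both treatments. The log2 fold change was 0.11 (95% confidence interval −0.26 to 0.48), and −0.01 without vehicle replicate 1.

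Sult1a1, which encodes a sulfotransferase of phenols, owed its higher CerM mean to 1 library. It had 10.26, 10.35 and 23.62 TPM in CerM replicates 1 to 3, against 14.19, 11.37 and 12.34 TPM in vehicle. CerM replicate 3 was the highest of all 6 libraries, and the other CerM libraries were the lowest. The log2 fold change was 0.11 (95% confidence interval −0.59 to 0.81), and −0.26 without CerM replicate 3. With sample weights it was 0.57.

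That library also held transcripts of fat tissue. The sum of 6 adipocyte markers was 667 TPM in CerM replicate 3, against 0.77 and 1.80 TPM in the other CerM libraries and 0.45 to 1.33 TPM in vehicle. Cfd, the adipocyte protein adipsin, was at 408.53 TPM there and is listed at 0 in the other 5 libraries. Plin4 and Pck1, stress-target genes that fat expresses and that were named after their values were seen, followed the same library. Plin4, a lipid droplet protein gene, had 1.68, 2.70 and 11.31 TPM in CerM and 2.20, 2.03 and 1.45 TPM in vehicle. Pck1, an enzyme of glucose and glycerol synthesis, had 12.73 TPM in CerM replicate 3 and at most 0.15 TPM in the other libraries. The part of these transcripts in the values of Sult1a1 and of the other genes in that library was not tested.

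**Figure D2:**
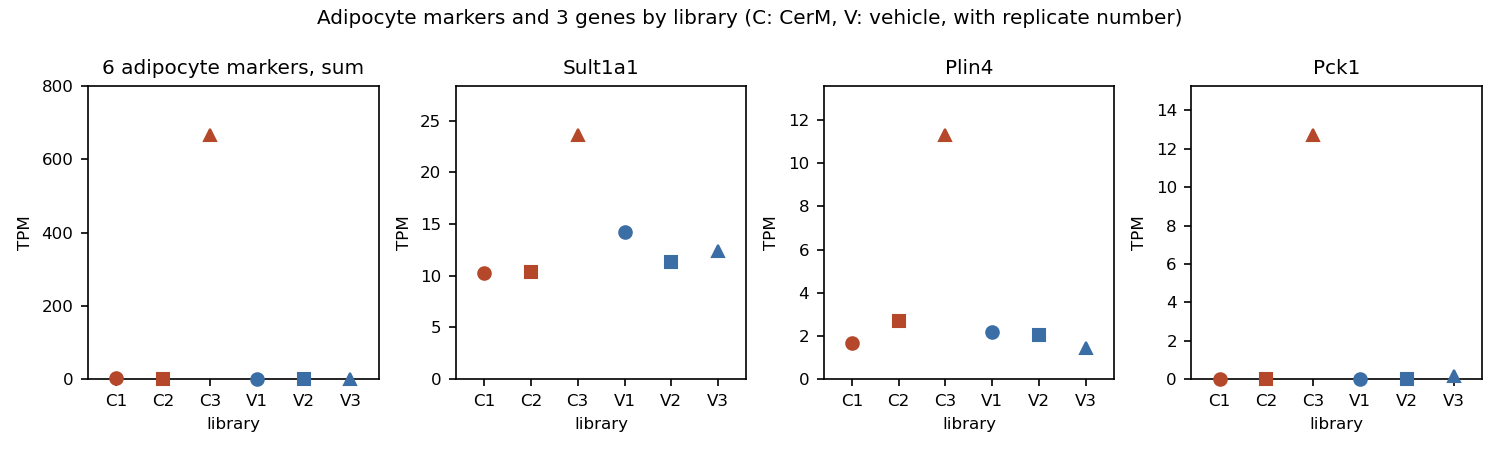
TPM by library (vertical axes from 0, libraries C1 to C3 CerM and V1 to V3 vehicle) of the summed 6 adipocyte markers, Sult1a1, Plin4 and Pck1. CerM replicate 3 is the highest in all 4 panels, at 667, 23.62, 11.31 and 12.73 TPM.

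The 10 genes did not share 1 order of libraries. Of the 10, 5 had their highest value in CerM replicate 2 (Depp1, Ddit4, Zbtb16, Errfi1 and Mt2) and 5 their lowest in vehicle replicate 1 (Sgk1, Zbtb16, Errfi1, Pdk4 and Mt2). Tsc22d3 instead was highest in vehicle replicate 1, and Klf9 was highest in CerM replicate 1. A z score, the distance of a library from the mean of the 6 in units of their SD on the log2 scale, summarised this. Over the 8 genes not picked on the contrast, the mean z score was −0.21, 0.53 and 0.45 in CerM replicates 1 to 3 and −0.59, −0.14 and −0.04 in vehicle replicates 1 to 3. CerM replicate 1 thus lay below vehicle replicates 2 and 3. Depp1 and Ddit4 could be highest only in a CerM library, as they were picked for it. The counts of highest and lowest libraries were not made over all tested genes, so they cannot show whether the pattern is particular to these 10. Over all tested genes the median log2 fold change was 0.03, −0.02 without CerM replicate 2 and 0.0033 without vehicle replicate 1.

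Vehicle replicate 1, the library with the lowest mean z score, also stood apart in marker content. Summed oligodendrocyte markers (8 genes) were at 5946 to 6835 TPM in CerM and at 3772, 5790 and 6555 TPM in vehicle replicates 1 to 3. Summed neocortex markers (6 genes) were at 160 to 163 TPM in CerM and at 315, 175 and 160 TPM in vehicle replicates 1 to 3. Choroid plexus markers (6 genes, Ttr among them) were at 306 to 10961 TPM in CerM and 253 to 15737 TPM in vehicle, high in CerM replicates 1 and 3 and vehicle replicate 3. Meningeal fibroblast markers (6 genes) spanned 74.4 to 268 TPM in CerM and 78.5 to 284 TPM in vehicle, and red blood cell markers (5 genes) 953 to 1327 TPM in CerM and 810 to 1288 TPM in vehicle. The part of these in the library pattern was not tested. Every marker list had all of its genes above 0 in at least 1 library.

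**Figure D3:**
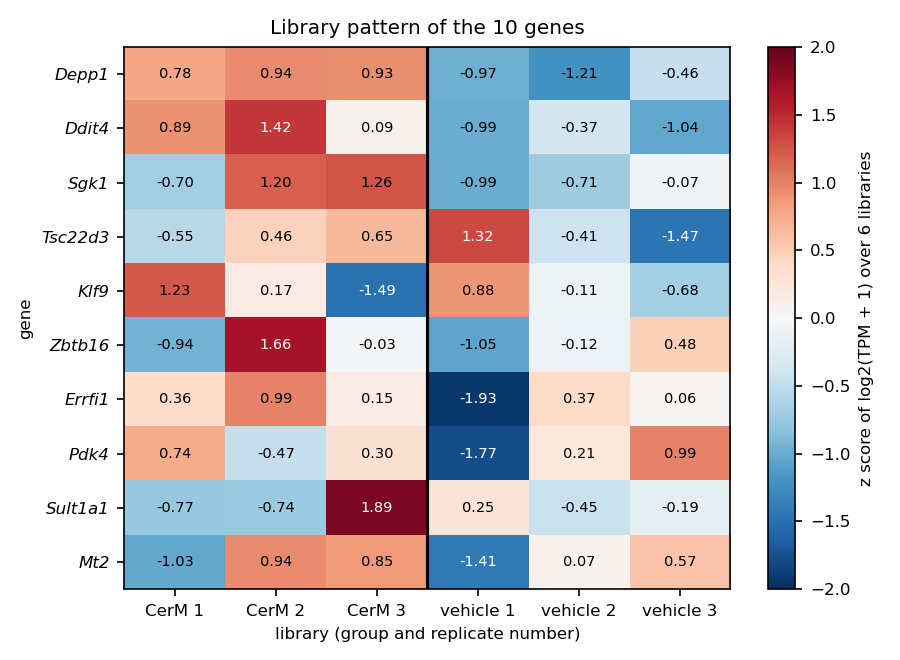
z scores of log2(TPM + 1) over the 6 libraries for the 10 genes (rows) in CerM and vehicle libraries (columns), red above and blue below the gene's mean. Depp1 and Ddit4, picked for it, have their 3 highest scores in CerM, and CerM replicate 2 is the highest and vehicle replicate 1 the lowest library for 5 genes each.

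Genes whose profile over the 6 libraries lay nearest to Depp1, by the root mean square difference of z scores, were Adhfe1 (0.18), Stam2 (0.20), Nqo2 (0.22), Bche (0.23) and Mdga2 (0.23). The median over genes was 1.17, and Ddit4 stood at 0.58 from Depp1. Both were picked for higher values in CerM, which by itself favours a distance below the median. The nearest of many genes over 6 libraries lie close through the search alone, so these distances are a description. Adhfe1, a mitochondrial enzyme of hydroxybutyrate metabolism, had 15.55, 15.63 and 16.69 TPM in CerM and 12.69, 12.41 and 13.78 TPM in vehicle. Nearest to Ddit4 were Zbtb44 (0.06), Cpsf6 (0.06), Dtx3l (0.13), Zfp383 (0.19) and Cert1 (0.21), beside a median of 1.15. Cert1, which carries ceramide from the endoplasmic reticulum to the Golgi, had 20.07, 20.82 and 19.22 TPM in CerM and 18.28, 19.38 and 18.27 TPM in vehicle.

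The other targets of glucocorticoids were a list of 24 genes without the 10. Lcn2 was below the minimum, and 23 were tested, of which 0 were called. Above 0 were 16 (69.6%, beside 58.8% of all tested genes) and below 0 were 7, with a median log2 fold change of 0.11 beside 0.03 over all tested genes. Groups did not overlap in 1, higher in CerM (4.35%, beside 3.26%), which was Arrdc2. Leaving out each library in turn, the median ran from 0.04 without CerM replicate 2 to 0.19 without CerM replicate 1, where the medians of all tested genes were −0.02 and 0.07.

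Arrdc2, an arrestin-domain gene, had 9.04, 10.25 and 12.13 TPM in CerM and 8.70, 7.44 and 7.21 TPM in vehicle. Its log2 fold change was 0.38 ± 0.15 (SE), and its adjusted p was 0.989 by limma. Nfkbia, the inhibitor of NF-kappaB that glucocorticoids induce, had 22.10, 39.63 and 34.76 TPM in CerM and 21.96, 27.35 and 23.05 TPM in vehicle. As for Sgk1, CerM replicates 2 and 3 were above every vehicle library and CerM replicate 1 was not. Glul, glutamine synthetase of astrocytes, averaged 984 ± 94.3 TPM in CerM and 882 ± 47.7 TPM in vehicle (SD, n = 3 each). Klf15, another glucocorticoid-induced factor, averaged 18.9 ± 0.96 TPM in CerM and 16.6 ± 1.99 TPM in vehicle (SD, n = 3 each). Both of these groups overlapped.

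The receptors themselves were measured in every library. Nr3c1, the glucocorticoid receptor, had 19.05, 18.13 and 16.87 TPM in CerM and 18.83, 16.21 and 17.09 TPM in vehicle, so the groups overlapped, with a log2 fold change of 0.05. Nr3c2, the mineralocorticoid receptor, which binds corticosterone with higher affinity, had 53.78, 68.11 and 47.73 TPM in CerM and 25.99, 58.17 and 60.18 TPM in vehicle. Vehicle replicate 1 was far below the rest, and the log2 fold change was 0.31 with it and −0.08 without it.

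The FOXO factors and their other targets were described in the same way. Foxo1, Foxo3, Foxo4 and Foxo6 averaged 9.33, 15.3, 11.4 and 7.17 TPM in CerM and 8.40, 14.1, 10.7 and 6.78 TPM in vehicle. All of their groups overlapped, and the log2 fold changes lay between 0.07 for Foxo6 and 0.15 for Foxo1. Without vehicle replicate 1 those of Foxo1, Foxo4 and Foxo6 were −0.03, −0.01 and −0.09.

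Of 28 other FOXO targets, which share Bcl6 and Cdkn1a with the glucocorticoid list, 24 were tested and 0 were called. Trim63, G6pc, Igfbp1 and Tnfsf10 were below the minimum. Above 0 were 17 (70.8%, beside 58.8%) and below 0 were 7, with a median log2 fold change of 0.07 beside 0.03 over all tested genes. Pck1, counted above 0, reached the minimum only through CerM replicate 3, the library with fat transcripts. Without that library 23 were tested and 16 were above 0. Their median was then 0.07, beside 0.05 over all tested genes in that fit. Without CerM replicate 2 the median was −0.0025, beside −0.02 over all tested genes in that fit. Groups did not overlap in 2 genes higher in CerM (S1pr1 and Sesn2, 8.33% beside 3.26%) and in 1 lower in CerM (Bnip3, 4.17% beside 4.04%). Sesn2 met this only narrowly, with a lowest CerM value of 9.56 TPM against a highest vehicle value of 9.53 TPM.

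S1pr1, the receptor for sphingosine 1-phosphate, had 68.26, 82.44 and 71.96 TPM in CerM and 61.80, 59.84 and 64.39 TPM in vehicle. Its log2 fold change was 0.25 ± 0.10 (SE), and its adjusted p was 0.989 by limma. Bnip3, a mitophagy receptor, had 143.20, 149.45 and 150.27 TPM in CerM and 176.74, 168.71 and 155.33 TPM in vehicle, with a log2 fold change of −0.17 ± 0.08 (SE). Txnip, which binds thioredoxin and limits glucose uptake, had 11.25, 16.60 and 23.70 TPM in CerM and 8.74, 8.73 and 16.45 TPM in vehicle. Replicate 3 was the highest of its group under both treatments. Insr, the insulin receptor, averaged 8.46 ± 1.12 TPM in CerM and 6.78 ± 0.83 TPM in vehicle (SD, n = 3 each), with groups that overlapped.

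**Figure D4:**
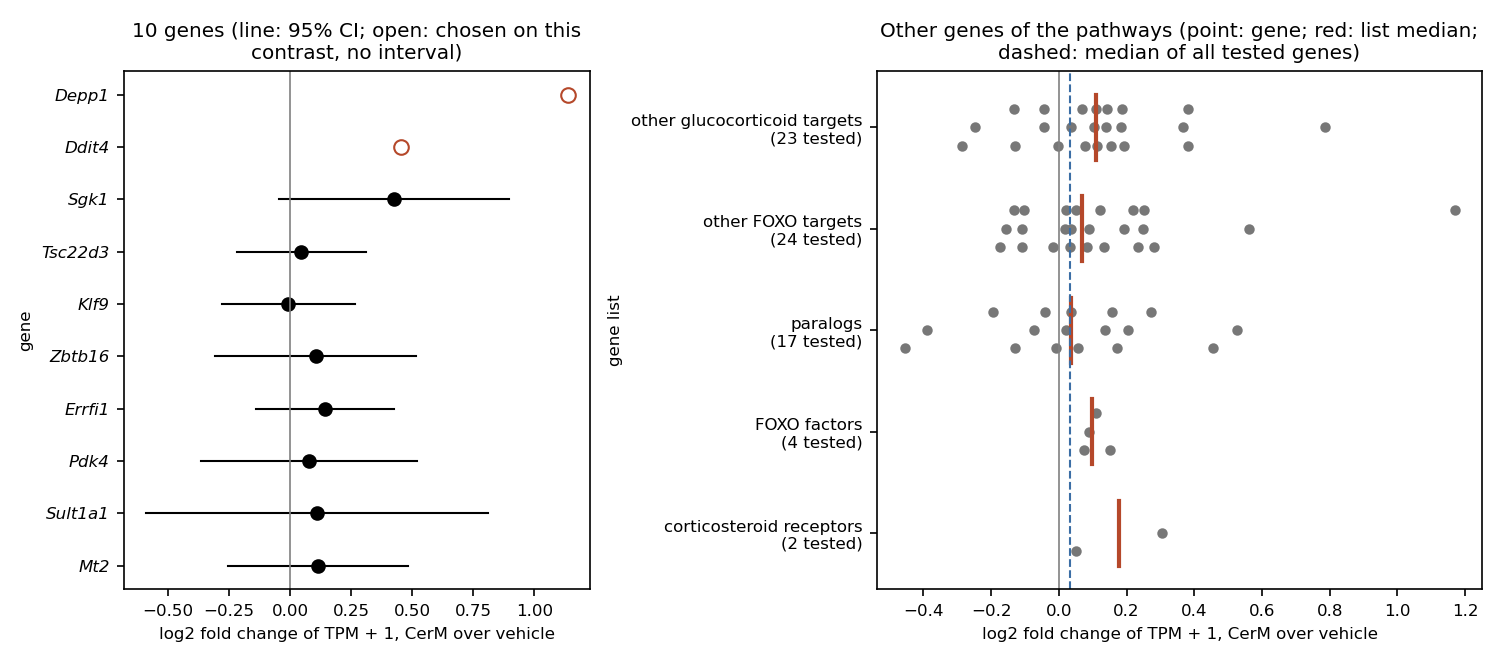
Log2 fold changes of TPM + 1, CerM over vehicle (horizontal axes): on the left the 10 genes, with 95% confidence intervals for the 8 not picked on this contrast, and on the right each tested gene of 5 related lists with the list median in red and the median of all tested genes (0.03) dashed. All 8 intervals include 0, and the list medians lie between 0.04 and 0.18.

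Paralogs of the 10 genes differed among themselves. Of 21 listed, 17 were tested and 0 were called. Mt4, Sult1b1 and Sult1d1 are listed at 0 in every library, and Klf14 was below the minimum. Above 0 were 10 (58.8%, beside 58.8% of all tested genes) and below 0 were 7. The median log2 fold change was 0.04, beside 0.03 over all tested genes. Without CerM replicate 2 it was −0.04, beside −0.02 over all tested genes in that fit. Groups did not overlap in 2 higher in CerM (11.8% beside 3.26%) and 3 lower in CerM (17.6% beside 4.04%).

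Sgk2, a kinase close to Sgk1, had 2.10, 2.79 and 2.17 TPM in CerM and 0.83, 1.93 and 1.32 TPM in vehicle, higher without overlap, while Sgk3 averaged 4.98 ± 1.40 TPM in CerM and 4.01 ± 1.57 TPM in vehicle and overlapped. Ddit4l, which like Ddit4 restrains mTOR, had 7.25, 5.83 and 6.98 TPM in CerM and 17.91, 5.68 and 8.18 TPM in vehicle, so vehicle replicate 1 set its log2 fold change of −0.46, which was −0.03 without that library. Klf10 averaged 16.7 ± 1.06 TPM in CerM and 14.3 ± 0.86 TPM in vehicle without overlap, and Klf13 (0.17) and Klf16 (0.06) overlapped.

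Tsc22d1 was at 301 ± 5.68 TPM in CerM and 329 ± 12.2 TPM in vehicle (SD, n = 3 each), lower without overlap, which was the opposite side from Tsc22d2 (log2 fold change 0.16) and Tsc22d4 (0.14). The brain sulfotransferase Sult4a1 was at 313 ± 23.4 TPM in CerM and 358 ± 26.2 TPM in vehicle, and Sult2b1 at 21.7 ± 2.47 TPM in CerM and 29.0 ± 6.57 TPM in vehicle (SD, n = 3 each), both lower without overlap. Sult4a1 met this only narrowly, with a highest CerM value of 338.24 TPM against a lowest vehicle value of 339.59 TPM. For Sult2b1 these values were 24.53 and 25.03 TPM. The log2 fold change of Sult2b1 was −0.39, and −0.22 without vehicle replicate 1, which had 36.63 TPM. Sult1c2 swung under both treatments, with 2.35, 0.12 and 1.83 TPM in CerM and 0.03, 0.04 and 2.85 TPM in vehicle. Its high libraries were those with high choroid plexus markers, and the part of those markers in its values was not tested. The pyruvate dehydrogenase kinases Pdk1, Pdk2 and Pdk3 had log2 fold changes of −0.07, 0.02 and −0.04, and the metallothioneins Mt1 and Mt3 had 0.04 and −0.01. Mt1 had 1028.78, 1259.95 and 1149.43 TPM in CerM and 992.31, 1138.59 and 1224.83 TPM in vehicle, with replicate 1 the lowest of each group, as for Mt2.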

How the data were processed

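Hippocampal RNA was sequenced in 6 mouse libraries, 3 CerM and 3 vehicle, grouped by their titles. Libraries were made with an Illumina TruSeq kit from TRIzol extracts treated with DNase I, per the labels' protocols. The submitters' processing notes name GRCm39 together with RSEM, StringTie and HISAT2 but give neither versions nor what each did. The authors deposited TPM values with 2 decimals. Library totals ran from 993379 to 995403 TPM and 14546 to 15058 genes were at 1 TPM or more. TPM keeps no sequencing depth, so depth is unknown and precision rests on 3 libraries per group.

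Genes with a mean of at least 1 TPM (14916) entered a limma model (3.58.1, under R 4.3.3) of log2(TPM + 1) that included a variance trend and was tested two-sided with Benjamini-Hochberg adjustment over all of them. The fit was checked on simulated data. Fold changes are CerM over vehicle and understate low genes. Other software was Python 3.11.15, pandas 2.3.3, numpy 2.4.6 and matplotlib 3.10.9.

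The 10 genes and all lists were chosen with earlier results of these data known, and the motifs after the promoter letters were seen. Named were all 10 genes, up to 4 genes of each target list with the smallest unadjusted p, all FOXO factors and corticosteroid receptors, every paralog at 1 TPM or more, and the 5 nearest profiles of Depp1 and Ddit4. Results were recomputed with pseudocounts of 0.1 and 0.5, with no minimum or one of 5 TPM, with other scaling (median-ratio, quantile, without genes of mitochondrial DNA), without the variance trend, with sample weights, with the replicate block and with each library left out.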

Additional observations from a re-analysis of the deposited data

How the results depend on the processing

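Of the 8 genes not picked on the contrast, 0 were called under any of 16 alternative settings, of which a minimum of 5 TPM leaves Pdk4 untested. Over all genes, 0 were called in each setting with all 6 libraries, and 1 to 8 when a library was left out, the most without CerM replicate 3. Of 43 named genes that were recomputed, 24 kept their direction wherever they were fitted, Sgk1 and Errfi1 among them. The nearest profiles of Depp1 and Ddit4, and Sesn2, were not recomputed. Depp1 and Ddit4 are among the 24. As they were picked with every CerM library higher, leaving out a library could not turn them. Depp1 ranged from 1.01 to 2.16 on the log2 scale and Ddit4 from 0.25 to 0.55. That minimum gives no value for Depp1 either. List medians ran from 0.041 to 0.19 for glucocorticoid targets, −0.0025 to 0.15 for FOXO targets and −0.035 to 0.072 for paralogs, beside −0.023 to 0.069 over all tested genes. The count of 5 genes lowest in vehicle replicate 1 was 4 to 5 under the 10 alternatives that keep all libraries, and cannot be given with a library left out.

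Whether the numbers of the replicates pair the libraries is not said, and the values do not settle it. Same-numbered libraries had correlations of deviations of 0.0083, 0.20 and 0.22 across genes, and differently numbered ones −0.21 to 0.065. The replicate block left the count of genes called by limma at 0. With it 496 genes had an unadjusted p below 0.05, beside 402 without it.

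The other 19 of the 43 recomputed genes changed direction in at least 1 setting, Ddit4l (−0.46 with all libraries) and Nr3c2 (0.31) among them, and the cause was not tested. With a library left out, log2 fold changes ran from −0.033 to 0.14 for Tsc22d3, −0.090 to 0.087 for Klf9, −0.058 to 0.24 for Zbtb16, −0.082 to 0.20 for Pdk4, −0.26 to 0.30 for Sult1a1 and −0.015 to 0.25 for Mt2. They ran from −0.029 to 0.27 for Foxo1, −0.0096 to 0.17 for Foxo4, −0.087 to 0.19 for Foxo6, −0.080 to 0.51 for Nr3c2, −0.13 to 0.012 for Pdk1, −0.074 to 0.11 for Pdk2, −0.076 to 0.0072 for Pdk3, −0.029 to 0.18 for Klf16, −0.048 to 0.11 for Mt1 and −0.11 to 0.057 for Mt3. Sample weights gave −0.12 for Nr3c2, −0.00072 for Foxo4, −0.16 for Foxo6, 0.10 for Ddit4l, −0.022 for Klf13, −0.17 for Klf16, −0.076 for Tsc22d2, 0.0017 for Pdk1, −0.061 for Pdk2 and −0.0092 for Mt1. Quantile normalization gave 0.013 for Klf9, −0.0072 for Pdk4, −0.0026 for Foxo6 and 0.043 for Mt3. Leaving out genes of mitochondrial DNA gave 0.0065 for Klf9 and 0.0062 for Mt3, and median-ratio scaling gave −0.0076 for Pdk2.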
